A study of Mus musculus with 62 samples.

Results

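Ttr, Enpp2, Prlr, Ace, Clic6, Igfbp2 and Cab39l are 7 genes with known expression in the choroid plexus, and all 7 were among the 11121 genes of the count table. They were found in the table by their Ensembl identifiers. The set was chosen by earlier values of these same libraries. These were the mCRS against CTR contrast in the nucleus accumbens (NAc), which Ttr led, and the levels in the single library highest in Ttr. Both are given here as a description, and the FDR result printed for that contrast is not a test of the set. The study asked how chronic stress alters the transcriptome of the prefrontal cortex (PFC) and of the NAc in wild-type C57BL/6j mice aged 15 weeks, all male per the methods. The CTR group received no stress, and the mCRS group went through multimodal chronic restraint stress, a course of daily restraint under changing conditions that ended some days before tissue collection. The 62 libraries fall into PFC CTR (n = 15), PFC mCRS (n = 15), NAc CTR (n = 16) and NAc mCRS (n = 16). Each came from tissue of one brain region of 1 hemisphere per animal, and which PFC and NAc libraries share a mouse is not given in the sources used here.

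The choroid plexus is a frond of epithelium over vessels and stroma that hangs in the brain's ventricles, secretes cerebrospinal fluid and carries hormones and ions between blood and fluid. Its epithelial cells make transthyretin, the product of Ttr and a carrier of thyroid hormone and retinol, in very large amounts. The lateral ventricle lies next to the NAc. The other genes of the set are less restricted: Enpp2 (autotaxin, which makes lysophosphatidic acid) is also made by oligodendrocytes, and Prlr, Ace and Igfbp2 have neuronal, vascular or meningeal sources as well.

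Totals ran from 945286 to 4857359 counts per library. The libraries were made with BRB-seq, a 3′ counting method in which barcoded samples are pooled early, and counts are read counts, so PCR copies are not removed and counting intervals cover counting error only. CPM, the normalised read count used below, is counts per 1000000 counts, scaled with TMM over the 62 libraries. The region labels were checked with 12 striatal projection neuron genes, such as Tac1 and Penk, and 10 cortical excitatory neuron genes. The striatal sum was 443 to 1791 CPM in the 30 PFC libraries and 3511 to 9999 CPM in 31 of the 32 NAc libraries. NAc CTR 7 stood apart with 791 CPM, within the range of the PFC, while its cortical sum of 134 CPM lay below every other library of either region. In NAc CTR 7 Prlr was the highest of its group (93.9 CPM, 231 counts) and Ttr was at 0, and results that rest on it are given with and without it.

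Ttr (ENSMUSG00000061808, GRCm38 chromosome 18, 20665280 to 20674321, plus strand) was low in nearly all libraries and very high in one. In PFC CTR it ran from 0.297 CPM over a median of 2.33 CPM to 265 CPM, and in PFC mCRS from 0 over 11.3 CPM to 44.8 CPM. In NAc CTR it ran from 0 over 13.2 CPM to 320 CPM. In NAc mCRS it ran from 0 over 15.5 CPM to 21441.5 CPM. The groups overlapped over nearly their whole range apart from that top value, which belongs to the library NAc mCRS 10. Ttr was at 0 counts in 2 PFC mCRS, 2 NAc CTR and 1 NAc mCRS libraries. NAc mCRS 10 held 36511 Ttr counts of 1606220, or 2.27% of the library (95% exact binomial interval 2.25 to 2.30%), and no other gene of that library had more counts. It supplied 91.1% of the Ttr counts of the whole study. Without it, NAc mCRS had 24.3 ± 22.7 CPM (SD, n = 15), against 33.5 ± 77.6 CPM in NAc CTR (SD, n = 16).

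**Figure D1:**
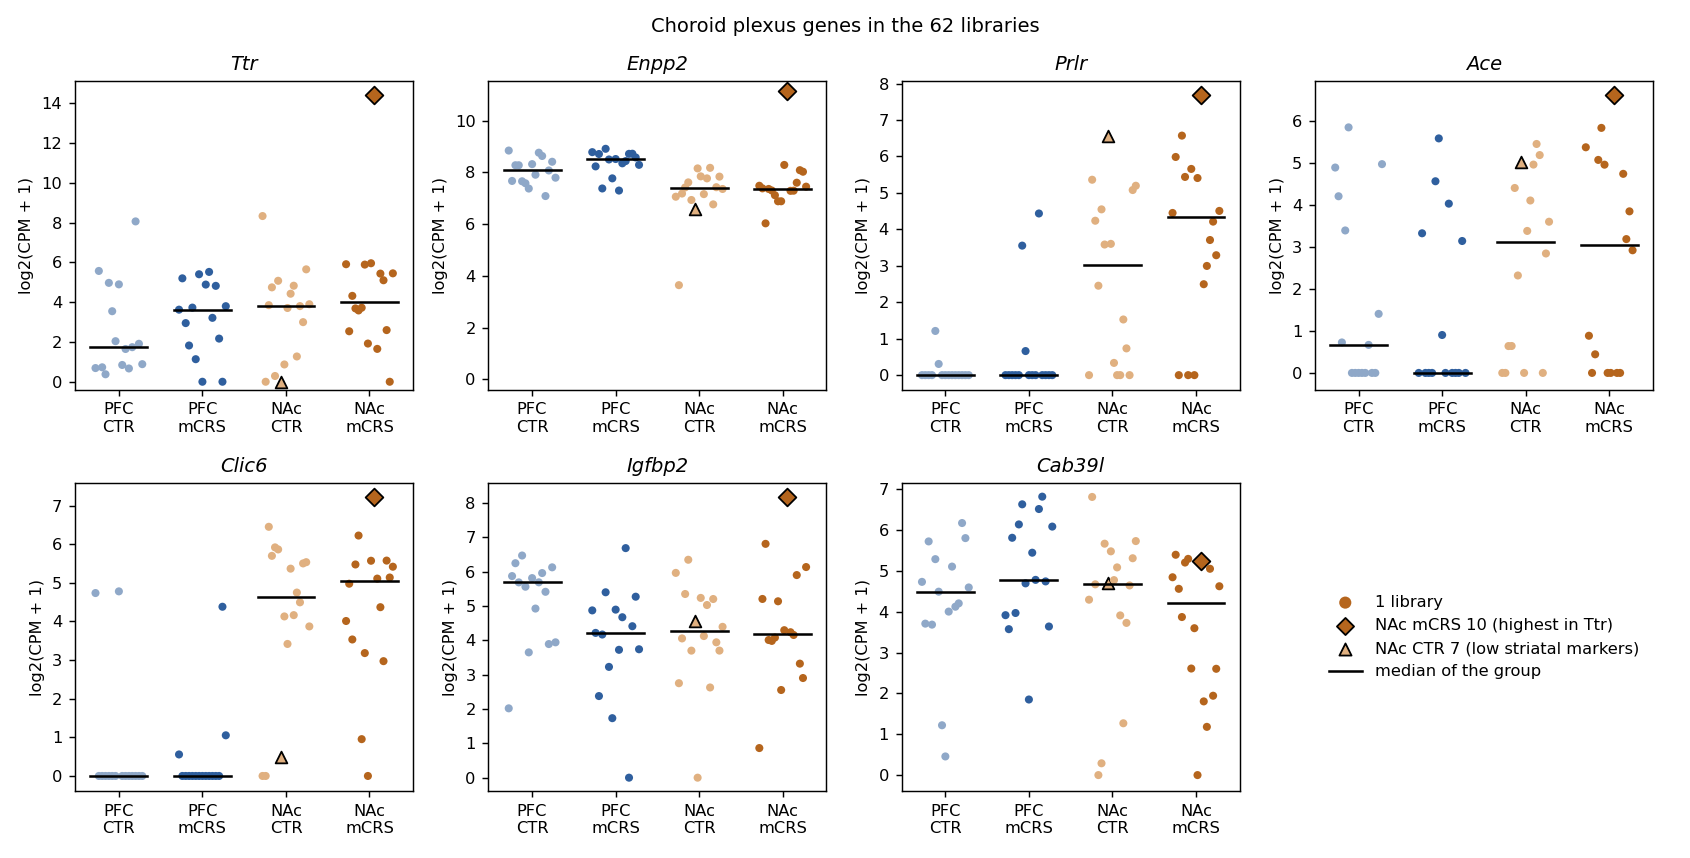
Level of each choroid plexus gene as log2(CPM + 1) on the vertical axis, 1 point per library in the 4 groups, with the median of each group as a bar. The diamond is NAc mCRS 10, which has the highest value in 6 of the 7 panels, and the triangle is NAc CTR 7, whose striatal markers were at the level of the PFC.

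NAc mCRS 10 was the highest of the 32 NAc libraries for 6 of the 7 genes, where 5.18% of all genes had their highest NAc value in it. The set was chosen with these values known, so nothing is read from that count. In the other 31 NAc libraries, 0.531 to 7.76% of all genes were highest in any one of them, and 6 of those libraries had a larger share than NAc mCRS 10. Enpp2 was at 2272 CPM in NAc mCRS 10, 14 times the median of the other 31 NAc libraries, whose highest value was 311 CPM. Prlr (the prolactin receptor) was at 205 CPM, 18.4 times the median, with 94.2 CPM in the next library. Ace (angiotensin-converting enzyme) was at 97.5 CPM, 14.8 times the median, with 56.2 CPM in the next. Igfbp2 (a binding protein for insulin-like growth factors in cerebrospinal fluid) was at 289 CPM, 17.2 times the median, with 111 CPM in the next. Clic6 (a chloride intracellular channel family protein) was at 149 CPM, 5.76 times the median, with 86.5 CPM in the next. For Ttr the ratio was 1658, and the next NAc library had 320 CPM. Cab39l (a scaffold of the LKB1 kinase complex) was the exception at 37.0 CPM, 1.56 times the median and the eighth highest of 32. Prlr, Ace, Clic6 and Igfbp2 thus exceeded the next library by a smaller margin than Ttr and Enpp2 did.

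Of a wider list of 52 choroid plexus genes, 20 were in the table. The other 32, among them Folr1, Kcnj13, Kl, Otx2, Aqp1 and Sostdc1, were not. Of the 20, 7 (35%) were highest in NAc mCRS 10, against 5.18% of all genes. This list too was written with earlier results of these libraries known. The 7 genes were Sulf1, Steap2, Col9a3, Slc4a2, Bmp6, Slc29a4 and Slc2a12. Slc29a4, a monoamine transporter, was at 164 CPM against a median of 5.26 CPM and a highest value of 68.1 CPM in the other NAc libraries. Bmp6, a secreted growth factor, was at 76.3 CPM against a median of 0.560 CPM, with 55.1 CPM in the next library. Col9a3, a collagen chain, was at 130 CPM against a median of 7.25 CPM. Of the 20 genes 14 lay above the median of the other NAc libraries, where 44.8% of all genes did. The summed level of the list was 1522 CPM, outside the range of 318 to 877 CPM in the other 31 NAc libraries and 2.27 times their median. The list was not uniform: the ion transporter Slc12a2 (61.7 against a median of 64.7 CPM), Vat1l (95.1 against 122 CPM) and the carbonic anhydrase Car12 (17.6 against 33.0 CPM) were below the median.

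Marker sums of other cell types in NAc mCRS 10 mostly lay within the other NAc libraries. The 4 erythrocyte genes in the table summed to 1201 CPM, above the range of 139 to 852 CPM in the others, with Hba-a1 and Hbb-bs each highest there. The 10 astrocyte genes summed to 2989 CPM, just below the range of 3051 to 4642 CPM. The 7 meningeal fibroblast genes summed to 166 CPM (others 12.4 to 308 CPM), with Col1a2 at 70.5 CPM, the highest of the 32 libraries, and Ogn and Serpinf1 at 0 counts. Sums for oligodendrocytes, endothelium, ependyma and striatal and cortical neurons ranked between 16 and 23 of 32. Only Foxj1 and Rarres2 of 10 ependymal genes were in the table. The part of red blood cells or stroma in the values of the choroid plexus genes was not tested. In such bulk tissue, more cells of a type and more RNA per cell cannot be told apart.

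**Figure D2:**
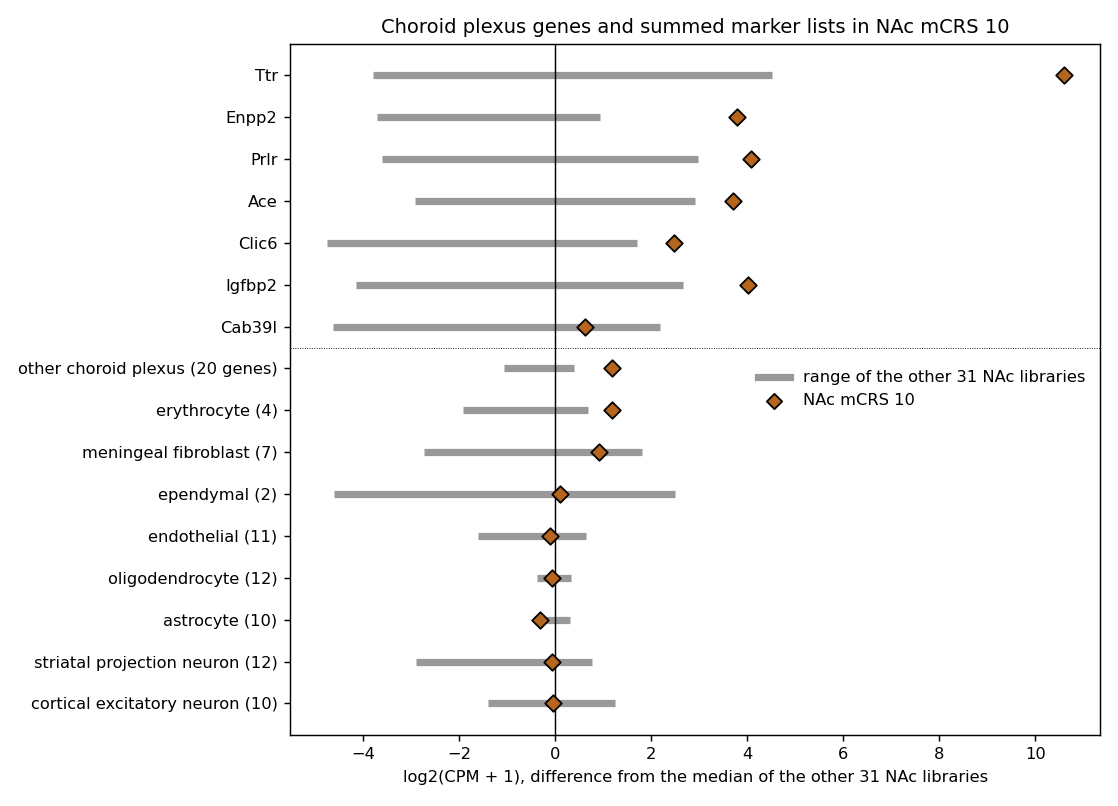
Levels in NAc mCRS 10 (diamonds) for the 7 genes and for summed marker lists, as the difference in log2(CPM + 1) from the median of the other 31 NAc libraries, whose range is the grey bar. 6 of the 7 genes, the other choroid plexus list and the erythrocyte list lie above the bar, Cab39l lies within it and the astrocyte list lies just below it.

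The next highest Ttr levels were in NAc CTR 1 (320 CPM) and PFC CTR 13 (265 CPM), with 479 counts each. In NAc CTR 1 Prlr, Ace and Clic6 were at 0 counts, Enpp2 was at 132 CPM, rank 12 of 16 in its group, and Igfbp2 was at 61.4 CPM, rank 2. Of the 20 other choroid plexus genes, Trpm3, Htr2c and Slc31a1 had their highest NAc level in NAc CTR 1, a count of 3 or 15%, where 6.74% of all genes did. Trpm3, a cation channel, was at 113 CPM and Htr2c, the serotonin 2C receptor, at 137 CPM. In PFC CTR 13 Cab39l was the highest of its group at 71.4 CPM, Enpp2 was at its group's median of 268 CPM, and Igfbp2 was at 13.8 CPM, rank 13 of 15. Of the other choroid plexus genes 1 of 20, Vat1l, had its highest PFC level there, where 3.21% of all genes did. Of these 3 libraries, NAc mCRS 10 was the one in which Enpp2 was the highest of its group.

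In the NAc, where mCRS was compared with CTR, Ttr was the one gene of 10141 with an FDR below 0.05 (0.00986% of the genes tested) by edgeR's quasi-likelihood test, with a log2 fold change of 5.38 ± 1.05 (SE). This is the contrast that chose the set, so the call of Ttr is a description and not a test of the set. The call rested on 1 library: without NAc mCRS 10, 0 of the 7 genes were called. Without NAc mCRS 10 the log2 fold change of Ttr was -0.46 ± 0.73. That of Enpp2 went from 0.86 ± 0.32 to 0.05 ± 0.23, that of Igfbp2 from 0.81 to 0.17 and that of Prlr from 1.11 to 0.58. Ace went from 0.58 to 0.13, Clic6 from 0.20 to -0.15 and Cab39l from -0.67 to -0.77. Leaving out NAc CTR 7 instead gave 5.31 for Ttr and 1.64 for Prlr, and leaving out both libraries gave -0.56 for Ttr and 1.11 for Prlr. DESeq2, which replaces outlying counts by default, gave 0.71 for Ttr, and 5.39 with the replacement turned off.

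In the PFC, mCRS against CTR showed no called gene of the set. None of 8916 genes (0%) had an FDR below 0.05 by edgeR, with 312 at an unadjusted p below 0.05, and 0 of the 4 genes tested passed. Prlr, Ace and Clic6 did not pass the filter on low counts. Enpp2 had a median of 268 CPM in PFC CTR (135 to 457 CPM) and 360 CPM in PFC mCRS (156 to 479 CPM), ranges that overlap almost entirely, and a log2 fold change of 0.32 ± 0.19 (SE, FDR = 1.0). Igfbp2 had a median of 50.5 CPM (3.05 to 87.6 CPM) in PFC CTR and 17.6 CPM (0 to 102 CPM) in PFC mCRS, with a log2 fold change of -0.88 ± 0.61 (FDR = 1.0). Cab39l had a log2 fold change of 0.78 ± 0.60 and Ttr one of -0.76 ± 0.91. The sign for Ttr rests on PFC CTR 13: without it the log2 fold change was 0.77.

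The same genes were then compared between regions, separately in CTR and in mCRS animals, the latter without NAc mCRS 10. Between NAc CTR and PFC CTR, 6.32% of 9932 genes were called at an FDR below 0.05 (2.09% higher in the NAc) by edgeR, and of 6 genes of the set that could be tested 1 was called, Enpp2, lower in the NAc. Between NAc mCRS and PFC mCRS, 6.12% of 9327 genes were called (1.99% higher in the NAc), and of 6 tested 3 were called: Clic6 and Prlr higher and Enpp2 lower. Clic6 and Prlr entered the test through the NAc libraries in which they were high, so the filter fixed their direction and the count of 3 is not to be read against the share of all genes. The median log2 fold change of the tested genes of the set was 0.27 in CTR and 0.44 in mCRS, against 0.02 over all genes in each. These medians include Clic6, and in mCRS Prlr too, so they are not to be read against all genes either.

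Clic6 (ENSMUSG00000022949, chromosome 16, 92485736 to 92541243, plus strand) was seen in nearly all NAc libraries and few PFC libraries. In NAc CTR it ran from 0 over a median of 23.7 CPM to 86.5 CPM, with counts in 14 of 16 libraries, and in PFC CTR it was at 0 in 13 of 15 libraries and reached 26.5 CPM. In NAc mCRS without NAc mCRS 10 it ran from 0 over 30.5 CPM to 73.8 CPM, with counts in 14 of 15 libraries, and in PFC mCRS it was at 0 in 12 of 15 and reached 19.8 CPM. The groups overlapped only through the few PFC libraries with counts and the few NAc libraries without. Its log2 fold change, NAc over PFC, was 3.13 ± 1.07 in CTR (FDR = 0.0692, not called) and 4.20 ± 1.08 in mCRS (FDR = 0.00701). The call in mCRS was lost when the percentage of genes detected in each library entered the fit (3.38, FDR = 0.0575). Summed over libraries, 1680 counts stood against 113 in CTR (ratio of CPM on totals 11.5, 95% counting interval 9.47 to 14), and 1265 against 41 in mCRS (ratio 24.7, interval 18.1 to 34.6). Without the PFC libraries CTR 1 or CTR 8, which held those 113 counts, Clic6 was called in CTR as well. It passed the filter on low counts through the NAc libraries, so a call, where made, could hardly go the other way. The gene 2410124H12Rik overlaps its 5′ end on the same strand and is not in the table.

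Prlr (ENSMUSG00000005268, chromosome 15, 10177238 to 10349180, plus strand) had the same pattern at lower counts. In NAc CTR it ran from 0 over a median of 7.74 CPM to 93.9 CPM, with 813 counts spread over 12 of 16 libraries. In PFC CTR 13 of 15 libraries were at 0 and the remaining 2 held 3 counts in all. By counting error alone, a count of 0 there allows up to 0.714 to 1.93 CPM. PCR copies are not removed, so this limit and the interval that follows do not cover the spread between libraries. The ratio of the summed counts, each divided by the total of its libraries, was 209 (95% counting interval 71.3 to 1015), and 157 (53.4 to 763) without NAc CTR 7. Prlr did not pass the filter in CTR. With no filter it had a log2 fold change of 6.98 (FDR = 0.000162), and 6.47 without NAc CTR 7 (FDR = 0.000385). In NAc mCRS without NAc mCRS 10 it ran from 0 over 17.5 CPM to 94.2 CPM, with counts in 12 of 15 libraries, and in PFC mCRS it was at 0 in 12 of 15 and reached 20.6 CPM. The log2 fold change was 3.55 ± 1.12 (FDR = 0.0412). As for Clic6, Prlr passed the filter through the NAc libraries, so a call could hardly go the other way. The call was lost in 21 of the 30 fits that left out 1 library, with FDR values of 0.00440 to 0.0870. It was also lost when the percentage of genes detected in each library entered the fit (FDR = 0.450). The gene Gm21973 overlaps the 3′ end of Prlr on the same strand and is not in the table. Reads in the overlap may be mixed or left uncounted.

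Enpp2 (ENSMUSG00000022425, chromosome 15, 54838901 to 54952892, minus strand) was counted in every library and was lower in the NAc. In CTR it had 278 ± 98.1 CPM in the PFC (SD, n = 15) and 168 ± 71.2 CPM in the NAc (SD, n = 16), where the lowest library, NAc CTR 2, had 11.5 CPM and the fewest counts of the study. In mCRS it had 340 ± 97.3 CPM in the PFC (n = 15) and 174 ± 63.6 CPM in the NAc (n = 15). The ranges overlapped in both, at 135 to 457 against 11.5 to 288 CPM in CTR and 156 to 479 against 64.2 to 311 CPM in mCRS. The log2 fold change was -0.72 ± 0.23 in CTR (FDR = 0.0420) and -0.98 ± 0.20 in mCRS (FDR = 0.000372). The call in CTR was lost with RLE normalization (FDR = 0.0579) and with all libraries in one fit (FDR = 0.174). It was also lost in 15 of the 31 fits that left out 1 library, one of them NAc CTR 7 (-0.68, FDR = 0.0616), with FDR values of 0.0246 to 0.0834. The call in mCRS held in all 30 such fits but was lost when NAc mCRS 10 was kept, which moved the log2 fold change to -0.16.

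Enpp2 is also made by myelinating oligodendrocytes, and their genes went the other way. Of 12 oligodendrocyte genes, 6 were higher in the NAc and 0 lower in CTR, with a median log2 fold change of 0.84, and 7 were higher and 0 lower in mCRS, with a median of 0.79. Of all genes tested, 2.09% were called higher in the NAc in CTR and 1.99% in mCRS. Mbp, myelin basic protein, was higher by 0.74 on the log2 scale in CTR and 0.79 in mCRS. Cnp was higher by 1.12 and 0.97 and Mobp by 0.81 and 1.01. Of the other choroid plexus genes, 2 of 14 tested were higher in NAc CTR and 2 of 13 in NAc mCRS, with 0 lower and medians of 0.68 and 0.92. Only 9 of this list, Strip2, Vat1l and Htr2c among them, passed the filter on low counts in the PFC libraries alone. The rest entered with the NAc libraries. The filter thus partly set these medians and the 0 lower, and they are not to be read against all genes. Strip2 was higher in both (1.73 and 2.54), Vat1l in CTR (1.45) and Htr2c in mCRS (2.04, a call lost in 21 of 30 fits that left out 1 library). Htr2c is also known from neurons.

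**Figure D3:**
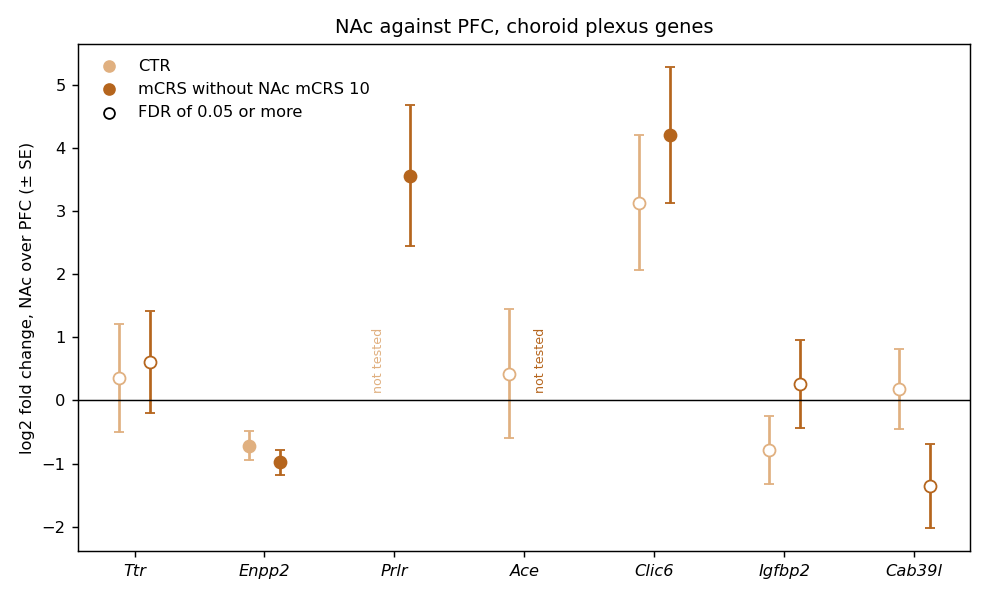
Log2 fold change of each choroid plexus gene in the NAc over the PFC (vertical axis, with the SE as the bar) in CTR and in mCRS without NAc mCRS 10, with filled points at an FDR below 0.05. Enpp2 lies below 0 in both, Clic6 above 0 in both with a filled point in mCRS alone, and Prlr above 0 in mCRS; Prlr in CTR and Ace in mCRS did not pass the filter on low counts.

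The remaining 4 genes were not called between regions. Ace (ENSMUSG00000020681, chromosome 11, 105967945 to 105989964, plus strand) was at 0 in 7 of 15 PFC CTR, 9 of 15 PFC mCRS, 4 of 16 NAc CTR and 5 of 16 NAc mCRS libraries. Its highest values were 56.6, 47.0, 42.8 and 97.5 CPM in that order, and its log2 fold change in CTR was 0.42 ± 1.02 (FDR = 0.942). Igfbp2 (ENSMUSG00000039323, chromosome 1, 72824503 to 72852474, plus strand) had 44.4 ± 25.2 CPM in PFC CTR and 25.6 ± 21.5 CPM in NAc CTR, a log2 fold change of -0.79 ± 0.54 (FDR = 0.583), and one of 0.27 ± 0.70 in mCRS. Cab39l (ENSMUSG00000021981, chromosome 14, 59440972 to 59585764, plus strand) had log2 fold changes of 0.18 ± 0.64 in CTR and -1.36 ± 0.66 in mCRS (FDR = 0.323). Its 3′ end overlaps Cdadc1 on the other strand. Since the strand setting of the counting is not given in the sources used here, reads in the overlap may be mixed or left uncounted. Ttr had log2 fold changes of 0.35 ± 0.85 in CTR and 0.61 ± 0.81 in mCRS. Without NAc CTR 1 the value in CTR was -0.86, so its sign there rests on that library, and without PFC CTR 13 it was 1.84.

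Otx2, which was not in the count table, is the transcription factor that specifies choroid plexus epithelium. Its homeodomain binds sites with the core TAATCC. These 6 letters were searched on both strands (reverse GGATTA) in RefSeq promoter windows of 300 bases (GRCm38.p6), of which 7.06% of 32851 held them. The table had 9 windows for 4 genes of the set, Igfbp2, Ace, Cab39l and Prlr, and 1 of the 9 held the letters, the window at the 5′ start of Ace. That window and the first one of Prlr, which is shown for comparison, follow 5′ to 3′ on the plus strand, with the letters of the motif in capitals. The match is a description of the sequence and no binding was measured.
Ace, chr11:105967698-105967997: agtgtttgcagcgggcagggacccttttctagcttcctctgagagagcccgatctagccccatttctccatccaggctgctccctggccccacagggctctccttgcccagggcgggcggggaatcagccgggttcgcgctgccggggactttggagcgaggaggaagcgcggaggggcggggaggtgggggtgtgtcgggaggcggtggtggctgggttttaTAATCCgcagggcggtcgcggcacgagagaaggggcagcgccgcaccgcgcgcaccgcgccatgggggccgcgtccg
Prlr, chr15:10176988-10177287: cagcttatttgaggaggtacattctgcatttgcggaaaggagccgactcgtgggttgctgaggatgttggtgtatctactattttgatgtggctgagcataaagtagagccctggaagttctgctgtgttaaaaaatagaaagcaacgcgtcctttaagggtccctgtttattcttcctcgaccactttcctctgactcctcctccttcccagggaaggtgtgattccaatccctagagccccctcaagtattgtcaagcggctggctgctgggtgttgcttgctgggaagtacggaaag

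Genes that work with each member were also followed. Of the partners of Ace in the renin-angiotensin system, 3 of 9 were in the table, and Agt, angiotensinogen, made by astrocytes, was higher in the NAc by 4.0 ± 0.66 on the log2 scale in CTR (FDR = 1.17e-05) and by 6.15 ± 0.77 in mCRS (FDR = 1.71e-08). Agt did not pass the filter on low counts in the PFC libraries alone. It entered these tests through the NAc libraries, so a call could hardly go the other way. Its highest NAc level, 427 CPM, was in NAc CTR 7. In the 31 fits in CTR that left out 1 library, its log2 fold change ran from 3.64 to 4.74 and the call held. Of the insulin-like growth factor genes around Igfbp2, 6 were tested in CTR and Igfbp6 (-2.58) and Igfbp4 (-1.20), 2 further binding proteins, were lower in the NAc. In mCRS 0 of 7 were called, with Igfbp6 at -1.81 (FDR = 0.0556) and Igfbp4 at -0.96 (FDR = 0.276), in the same direction. Of all genes tested, 6.32% were called in CTR and 6.12% in mCRS in either direction. A count of 0 in lists this short therefore says little. Of the thyroid hormone and retinol genes around Ttr, 0 of 8 were called in either comparison, and 0 of 3 for the lysophosphatidic acid genes around Enpp2, 0 of 3 for the prolactin signalling genes around Prlr and 0 of 10 for the kinase partners of Cab39l. In the PFC, mCRS against CTR called 0 genes of any of these lists and 0% of all genes. In NAc mCRS 10, Dio2, the deiodinase that activates thyroid hormone, was at 86.3 CPM, the second highest of the 32 NAc libraries. Igfbp6 was the highest there (61.1 CPM against a median of 8.33 CPM) and Igfbp3 the second highest at 27.6 CPM. Of the 10 kinase partners of Cab39l, Stradb (78.1 CPM) and Stk39 (146 CPM) were the highest of the 32 libraries. Slc12a2, Cab39, Wnk1, Strada and Oxsr1 of that list were below the median, and its sum was at 1.12 times the median, rank 6. Plpp3, a phosphatase of lysophosphatidic acid, was at 704 CPM, 1.95 times the median and the second highest. Stat5b and Jak2, which carry the prolactin receptor signal, were both at 80.5 CPM, rank 4 and rank 5. Others of these lists were low there: Socs2, an inhibitor of that signal, was at 0 counts, Plpp1 at 1.17 CPM against a median of 30.1 CPM (rank 30), the thyroid hormone receptor Thra at rank 27 and Igfbp5 at rank 25. The summed partners of Ttr were at 0.992 times the median of the other NAc libraries, rank 18.

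Co-variation was examined within each group over log2 CPM. Of 40 planned relations 36 were computed, since 4 had fewer than 6 libraries with counts. None of the 36 had an adjusted permutation p below 0.05 by Pearson's r or Spearman's rho. At an unadjusted permutation p below 0.05 there was 1 by r and 2 by rho, each of them a relation of Enpp2 with the oligodendrocyte sum. Of these, 20 joined Ttr to another gene of the set without NAc mCRS 10. Pearson's r ran from -0.50 to 0.39, 11 were above 0, and the smallest adjusted permutation p was 0.537. Ttr and Enpp2 had r = -0.27 (CTR) and -0.23 (mCRS) in the PFC, and 0.28 (CTR) and -0.11 (mCRS without NAc mCRS 10) in the NAc. With NAc mCRS 10 included, r in NAc mCRS was 0.69 for Enpp2, 0.57 for Igfbp2, 0.48 for Prlr, 0.41 for Ace, 0.33 for Clic6 and 0.20 for Cab39l. For Enpp2 Spearman's rho was 0.26 beside that r of 0.69, so the relation rests on 1 library. The summed other choroid plexus genes had r = 0.46 with Ttr in NAc mCRS without that library (rho 0.50, adjusted permutation p = 0.619), and r = 0.23 when the 2 libraries farthest from the median of Ttr were left out too. With NAc mCRS 10 included r was 0.71, and 0.32 without the 2 farthest libraries.

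**Figure D4:**
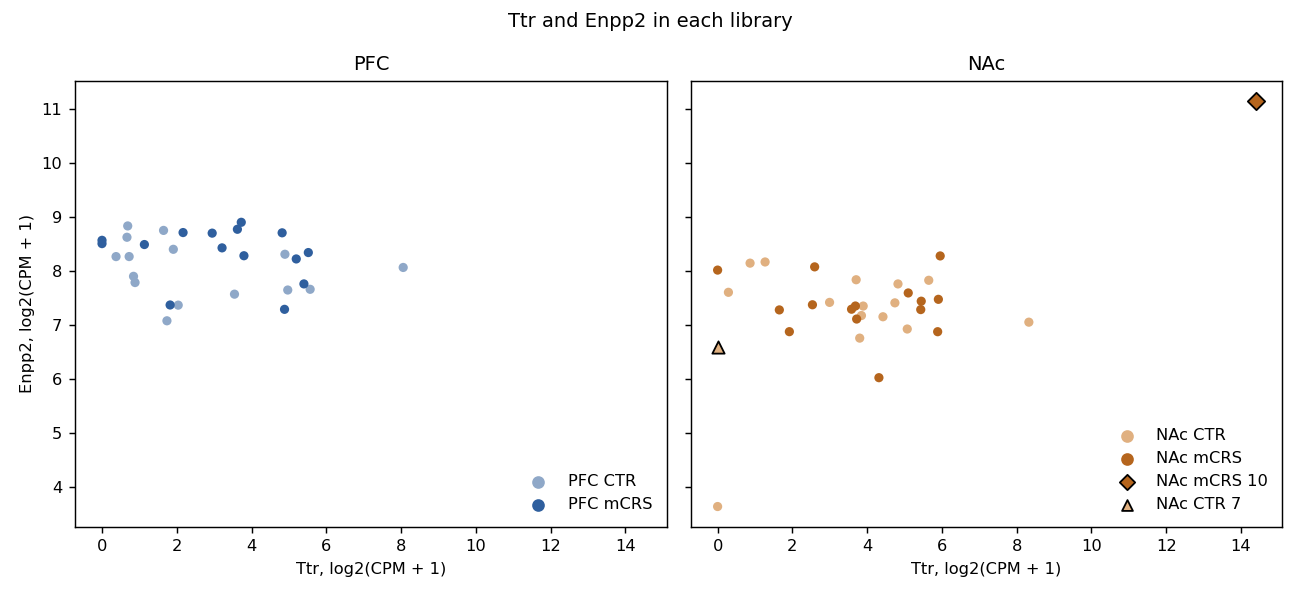
Ttr (horizontal axis) against Enpp2 (vertical axis), both as log2(CPM + 1), 1 point per library, PFC on the left and NAc on the right. The diamond at the upper right of the NAc panel is NAc mCRS 10 with 21441.5 CPM of Ttr and 2272 CPM of Enpp2, and the remaining points show no common slope.

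The strongest relation in the family was that of Enpp2 with the summed oligodendrocyte genes in NAc mCRS without NAc mCRS 10. There Pearson's r was 0.66 (permutation p = 0.00622, adjusted 0.224) and Spearman's rho 0.69 (permutation p = 0.00562, adjusted 0.202), with r = 0.59 without the 2 libraries farthest from the median of Enpp2. With NAc mCRS 10 included r was 0.24, since that library had the highest Enpp2 and an oligodendrocyte sum within the others. In PFC CTR the same relation went the other way, with r = -0.51 (permutation p = 0.0536, adjusted 0.537) and rho = -0.60 (permutation p = 0.0204, adjusted 0.368). In PFC mCRS r was 0.21 and in NAc CTR it was 0.41. Igfbp2 with the meningeal fibroblast sum had r from -0.02 to 0.48 over the 4 groups, and Ace with the striatal sum from -0.34 to -0.16.

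The genes most like Ttr over the 62 libraries, after the group means were subtracted, were Camkk2 (Pearson's r of log2 CPM 0.44), Zbtb43, Slc37a1, Polr1d, Esco1, Tln2, Zfp574, Cdh6, Aga and Prkca (0.39). Enpp2 ranked 84 of 11022 genes (0.31) and Igfbp2 294 (0.25), while Cab39l, Ace, Clic6 and Prlr ranked 1491, 2109, 2276 and 4376. Without NAc mCRS 10 the 10 genes most like Ttr were Tln2 (0.46), Slc17a9, Atxn1, Man2a1, Rps6kb2, Prkca, Dedd, Cpm, Slk and Esco1 (0.41), of which Tln2, Prkca and Esco1 were in both lists. Enpp2 then ranked 5092 (0.02) and Prlr 9240 (-0.13). These correlations share the libraries and their depth and are a description. The genes richest in NAc mCRS 10 against the median of the other NAc libraries (offset by 0.5 CPM) were, after Ttr, Slc37a1, Emp3, Efcab12, Ccdc159, Zfp105, Arhgap15, Cenpq, Cd38, Renbp, Rbm4, Clec11a, Kcnk10, H2-Aa and Ppp1r14c. All of these but Ppp1r14c had a median of 0 in the other NAc libraries, so the offset sets their order and their ratios are not fold changes, and genes detected in most NAc libraries, such as Enpp2, could hardly rank among them.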

How the data were processed

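The authors deposited 1 table of raw read counts per gene, made with STAR alignment to mm10 and HTSeq 0.9.1 per the submitters' processing notes, after removing 2 PFC samples of poor sequencing quality. How the 11121 genes of the table were chosen is not given in the sources used here. The unit is counts without molecular identifiers. Symbols and coordinates came from GENCODE for GRCm38. The members and lists were chosen with earlier results of these data known. Groups were compared with edgeR 4.0.16 (R 4.3.3; quasi-likelihood test, TMM, filterByExpr, Benjamini-Hochberg adjustment over all genes tested, threshold 0.05), on the libraries of the 2 groups compared, although the study named DESeq2, which was run as an alternative (1.42.0). Nothing says more of the replicates than separate animals. The tests were also run on simulated data, those between groups with 200 changed genes. No single library was set to stand out there as NAc mCRS 10 does for Ttr, so that case is not covered. Correlations used log2 CPM with a prior count of 2, at least 6 libraries with counts and 100000 permutations (two-sided), adjusted over 36 relations. Named beyond the 7 genes were up to 4 genes of each list by the smallest p or the highest ratio, the 10 genes most like Ttr and the 15 richest in NAc mCRS 10 with at least 10 counts. Other list genes named were chosen after their values were seen. Totals of 945286 to 4857359 counts make 3 counts, the upper limit for a count of 0 by counting error alone, between 0.618 and 3.17 CPM. Since it is not given which PFC and NAc libraries share a mouse, no pairing was used, and the region tests took the libraries as independent. Same-numbered libraries did not deviate together (correlations of -0.03 to 0.05). A shared number need not mark a shared mouse, so this cannot show that the regions are independent.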

Additional observations from a re-analysis of the deposited data

How the results depend on the processing

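Of the values recomputed under other settings (leaving single libraries out aside), 367 of 394 stayed the same by rules that differed between values. For single genes in the PFC and region comparisons this meant the same direction and side of the threshold, which includes genes never called. For counts of calls it meant a count within a fixed factor. For the stress differences in the NAc and the list ratio it meant a move smaller than the SD between libraries. Of the region calls in CTR, 1 gene of the set was called as reported, 2 with DESeq2 or with no filter (Enpp2 and Prlr), 2 with the replicate number as a block (Enpp2 and Clic6, the latter at a log2 fold change of 8.08), and 0 with RLE normalization. In mCRS, 3 were called as reported, 1 (Enpp2) with the filter of 10 counts in 50% of libraries, which Clic6 and Prlr did not pass, and 1 (Enpp2) with the percentage of genes detected as a covariate. Leaving out single libraries gave 0 to 1 in CTR, 2 to 3 in mCRS and 0 to 0 in the PFC. The stress difference of Ttr in the NAc, 5.38, was 0.71 with DESeq2, 0.94 with the replicate block, -0.46 without NAc mCRS 10 and -0.56 without NAc CTR 7 too, the last chosen after seeing the data, and 5.31 without NAc CTR 7 alone. That of Clic6 turned to -0.15 and -0.24 in these last 2 fits without NAc mCRS 10. In the PFC, the stress difference of Ttr turned to 0.81 with DESeq2 and 1.68 with the replicate block, and ran from -0.94 to 0.77 with single libraries left out. In the region comparison of CTR, Ace turned to -0.067 with the covariate and Cab39l to -0.27 with the block. With single libraries left out Ttr ran from -0.86 to 1.84, Cab39l from -0.12 to 0.37 and, in mCRS, Igfbp2 from -0.10 to 0.62. The cause was not tested. Same-numbered libraries share only a number, and 1 to 2 of 14 to 16 correlated best with their own number. The count of co-variation relations with an adjusted permutation p below 0.05 was 0 under every setting run. The ratio of the other choroid plexus list in NAc mCRS 10, 2.27, was 2.23 on total counts without TMM. For Prlr, Ace and Clic6, many libraries held 0 counts, which limits what these depths can show.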
